A study of Mus musculus with 4 samples.

Results

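The 10 genes described here encode receptors for formyl peptides, complement anaphylatoxins, chemerin and leukotriene B4, together with their orphan relative Gpr33. They were chosen by name as members of these receptor families, with the changes of several of them in this comparison already known, so their values are a description. Where calls of the fit over all genes are counted for them, the counts stand beside those of all genes and support nothing. Each of the 10 had a probe on the array, 11 probes of 56605 in all, and 9 of them passed the filter on dim probes and stood among the 24067 genes tested. Ltb4r2 did not pass. Of these 24067 entries, 14496 carried a RefSeq symbol and the rest only the array's own identifier. Shares and ranks over all genes cover every entry, named or not.

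RNA came from primary Kupffer cells (liver-resident macrophages) cultured from male C57BL/6 mice of 8 weeks. The MaR1 group received 200 nM maresin 1, a resolution-phase lipid mediator made from docosahexaenoic acid, for 24 h, and the Veh group received ethanol. Both groups were kept in RPMI medium with 0.1% serum during treatment, after plating in 10% serum, and each has 2 single-colour arrays. Nothing in the labels ties the replicates to separate animals or cultures, so p-values cover the spread from array to array alone, and that spread may be technical. All 4 arrays lay on a single slide, each group at its own positions, and effects of position and treatment cannot be told apart.

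Chemoattractant receptors of this family are G protein-coupled receptors that let phagocytes sense bacterial products, tissue damage and complement activation. Ligand binding releases Gi-type G proteins, whose beta-gamma subunits activate phospholipase C beta and PI3K gamma for directed movement and for the oxidative burst. Receptor kinases and arrestins then switch the receptor off. Kupffer cells stand in the path of portal blood and meet formylated peptides and complement fragments there.

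The start regions of the 3 receptor genes with the largest differences are shown because Fpr1 and Fpr2 had similar values on the arrays and Gpr33 went the other way. Fpr1 and Fpr2 are neighbours on mouse chromosome 17 and are read in opposite directions away from each other, and Gpr33 lies on chromosome 12. Each line gives the 250 bases before the annotated start, 5′ to 3′ on the gene's strand, from RefSeq for GRCm38.p6, at chr17:17883940-17884189 (minus strand) for Fpr1, chr17:17887574-17887823 (plus strand) for Fpr2 and chr12:52028064-52028313 (minus strand) for Gpr33. Capitals mark every match, on either strand, to 6 motifs: PU.1 (GAGGAAG), C/EBP (TTGNNNAA), RORE (AGGTCA), STAT6, NF-kB and AP-1 (TGANTCA).
Fpr1: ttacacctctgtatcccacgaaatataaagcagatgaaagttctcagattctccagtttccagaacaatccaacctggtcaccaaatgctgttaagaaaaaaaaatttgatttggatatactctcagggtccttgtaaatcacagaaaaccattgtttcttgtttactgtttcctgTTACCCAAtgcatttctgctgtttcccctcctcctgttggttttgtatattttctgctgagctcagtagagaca
Fpr2: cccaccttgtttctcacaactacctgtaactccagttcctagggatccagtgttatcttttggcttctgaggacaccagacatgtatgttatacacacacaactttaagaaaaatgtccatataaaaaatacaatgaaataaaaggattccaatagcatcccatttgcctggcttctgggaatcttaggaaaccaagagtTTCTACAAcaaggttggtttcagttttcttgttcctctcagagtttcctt
Gpr33: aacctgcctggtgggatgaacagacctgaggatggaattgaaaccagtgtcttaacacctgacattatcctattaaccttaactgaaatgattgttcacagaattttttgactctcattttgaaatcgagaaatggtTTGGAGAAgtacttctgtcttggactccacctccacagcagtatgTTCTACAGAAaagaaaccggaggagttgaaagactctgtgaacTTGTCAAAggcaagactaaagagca

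Fpr1 and Fpr2 each held a single match, to the C/EBP letters, ending 67 and 43 bases before the start. That motif is common, with a match in 33.3% of the 32807 start regions of this length. Gpr33 held 2 C/EBP matches and a STAT6 match, TTCTACAGAA, ending 59 bases before its start, and 5.85% of all start regions hold the STAT6 letters. In the other members, for which 9 of the 10 genes had an entry and C5ar2 had 2 starts, the STAT6 letters also occurred before 1 start of C5ar2. A RORE match, found in 14.0% of all start regions, occurred before Fpr-rs6 and before the other start of C5ar2. PU.1 letters (10.6% of start regions) occurred before Ltb4r1 and 1 start of C5ar2, where they overlapped a C/EBP match. C3ar1 held NF-kB (1.41%) and AP-1 (6.75%) matches, Fpr-rs6 also an AP-1 match, and Cmklr1 held none of the 6. These matches describe letters in a window and were not tested for binding.

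Fpr1, the high-affinity receptor for N-formylated peptides of bacteria and mitochondria, was 6.09-fold lower with maresin 1. The levels that follow are log2 of the probe's signal relative to the 75th percentile of its array, and they are compared between arrays, not between probes. Fpr1 stood at 0.74 and 0.41 on the MaR1 arrays, against 3.17 and 3.20 on the Veh arrays. The MaR1 arrays also lay farther from each other (0.58 ± 0.23) than the Veh arrays did (3.18 ± 0.02; SD, n = 2 each), yet the groups did not come close to overlapping. The difference, MaR1 minus Veh, was -2.61 ± 0.12 (SE of the limma fit over all genes, as for all differences), the lowest of the 24067 genes tested. In bulk RNA such as this, a change in the share of a cell type and a change of RNA per cell cannot be told apart.

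Fpr2 binds a broader set of ligands, among them serum amyloid A and annexin A1 peptides. Its brighter probe stood at 1.98 and 1.72 on the MaR1 arrays, against 4.22 and 4.23 on the Veh arrays. The difference was -2.37 ± 0.10, or 5.18-fold lower with maresin 1, and only 3 of all tested genes had a lower one. A dimmer Fpr2 probe gave levels of 0.48 and 0.28 on the MaR1 arrays, against 2.63 and 2.67 on the Veh arrays, a difference of -2.27 ± 0.09. All 3 probes of Fpr1 and Fpr2 were bright in spot signal on every array, and each read lower on MaR1 replicate 2 than on MaR1 replicate 1.

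**Figure D1:**
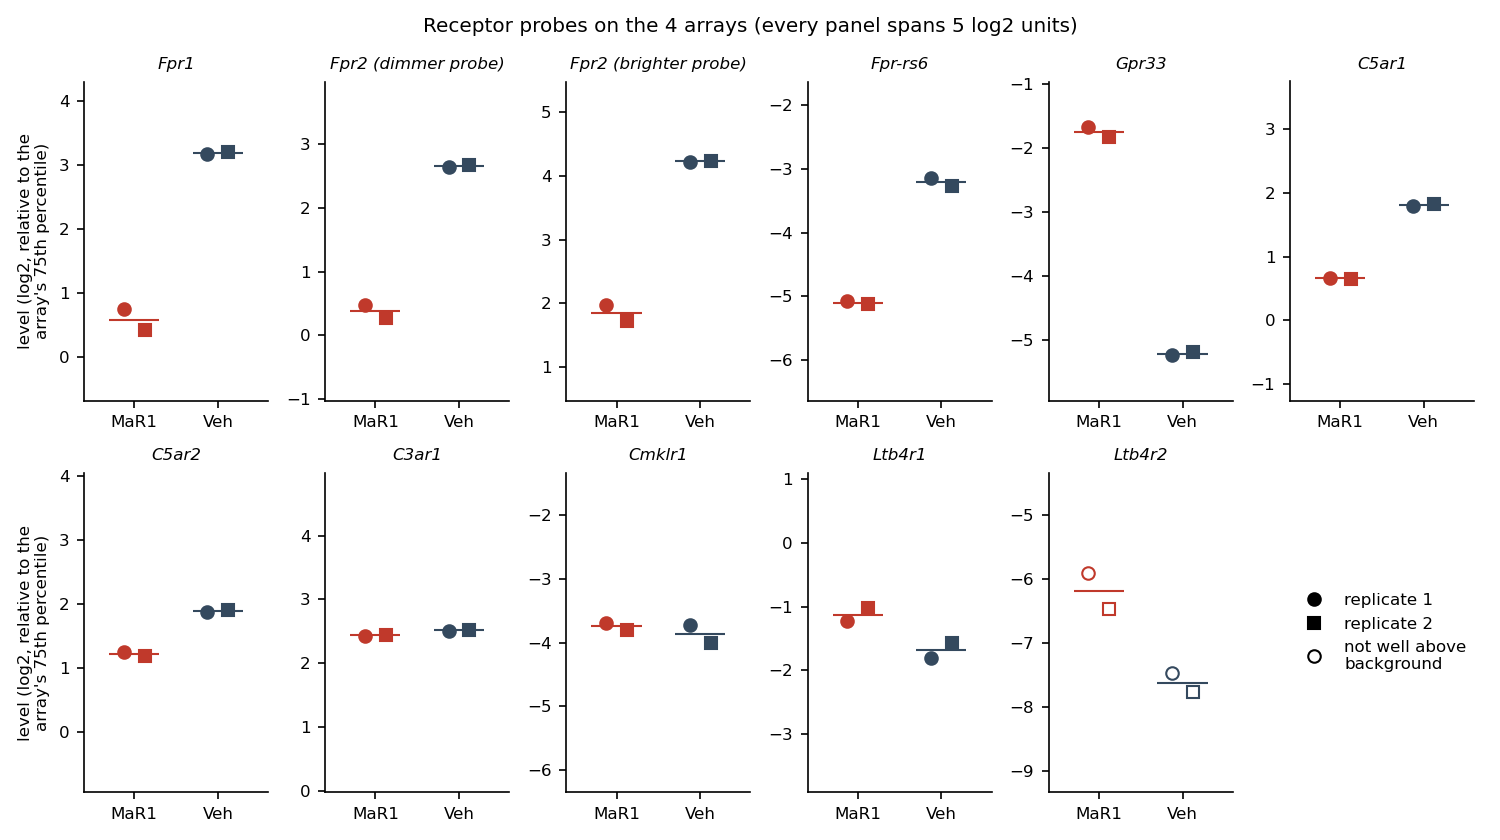
Level of each receptor probe on each array (log2 of signal over that array's 75th percentile; circles replicate 1, squares replicate 2, lines group means, open symbols not well above background). Every panel spans the same 5 log2 units. The MaR1 arrays sit lower for Fpr1, Fpr2, Fpr-rs6, C5ar1, C5ar2 and, by little, C3ar1. They sit higher for Gpr33, for Ltb4r1 and for Ltb4r2, whose symbols are all open.

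Fpr-rs6, a mouse paralog known from the vomeronasal organ, was read at a dim spot. Its processed signal was 28.1 and 24.3 on the MaR1 arrays, against 108.4 and 102.5 on the Veh arrays, and it was marked well above background on all 4. The difference was -1.89 ± 0.07 on the processed signal, with an SE of 0.17 when variance could follow signal level in the fit (a variance trend). It was -0.74 when the median spot signal was used with normexp background correction and quantile normalization (named normexp from here on). Fpr1 and Fpr2, with related sequences, were bright and lower on the same MaR1 arrays, and the part of cross-hybridization in the Fpr-rs6 signal was not tested. The other paralogs gave little signal. Fpr3 read 7.87 and 10.6 on the MaR1 arrays against 14.4 and 4.87 on the Veh arrays, and was well above background on none. Fpr-rs4 read between 3.38 and 4.46 on the 4 arrays, also at background. Fpr-rs3 read 7.31 and 8.04 on the MaR1 arrays, against 22.4 and 29.6 on the Veh arrays, and was well above background on Veh replicate 2 alone. Fpr-rs7 was not analysed here.

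Gpr33, an orphan receptor gene related to the chemoattractant receptors, intact in mice and inactivated in most humans, went in the opposite direction. Its processed signal was 296.6 and 237.9 on the MaR1 arrays, against 25.5 and 27.0 on the Veh arrays. In levels it stood at -1.67 and -1.83 on the MaR1 arrays and at -5.24 and -5.19 on the Veh arrays, without overlap. The difference was 3.46 ± 0.08, an 11-fold higher signal with maresin 1 and among the 10 highest of all genes. It was 1.87 with normexp, and between 3.38 and 3.55 under every other alternative, with an SE of 0.14 under a variance trend. The Veh spots had a median pixel signal of 78 and 82 over a local background of 35 and 40.

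C5ar1 and C5ar2, which lie next to each other on chromosome 7, both had lower values with maresin 1. C5ar1, the signalling receptor for the anaphylatoxin C5a, stood at 0.67 and 0.65 on the MaR1 arrays, against 1.79 and 1.83 on the Veh arrays. The difference was -1.15 ± 0.06, or 2.22-fold lower. C5ar2 also binds C5a but is known to work mainly through arrestin rather than G proteins. It stood at 1.25 and 1.19 on the MaR1 arrays, against 1.87 and 1.91 on the Veh arrays, a difference of -0.66 ± 0.06 and 1.59-fold lower. For both genes the arrays of a group lay within 0.06 of each other and the groups were clearly apart.

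C3ar1, the receptor for C3a, stood at 2.43 and 2.45 on the MaR1 arrays, against 2.50 and 2.53 on the Veh arrays. Its difference of -0.08 ± 0.06 was small beside that of C5ar1, although the groups did not overlap. Cmklr1, the chemerin receptor, had dim spots and overlapping groups, at -3.69 and -3.80 with maresin 1 and at -3.73 and -4.00 with vehicle. Its difference was 0.12 ± 0.11.

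The leukotriene B4 receptors lie side by side on chromosome 14. Ltb4r1 encodes BLT1, the high-affinity receptor, and stood at -1.23 and -1.02 on the MaR1 arrays, against -1.80 and -1.57 on the Veh arrays. The groups did not overlap, but the arrays within each were spread (SD 0.15 with maresin 1 and 0.16 with vehicle). The difference was 0.56 ± 0.12, or 1.47-fold higher, and its call was lost whichever of the 4 arrays was left out. Ltb4r2, the low-affinity receptor, read 15.8 and 9.61 on the MaR1 arrays against 5.41 and 4.52 on the Veh arrays, was well above background on none, and is given no fold.

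Counted together, 5 of the 9 tested receptors were called lower and 2 higher at an adjusted p under 0.05, while C3ar1 and Cmklr1 were not called. Of all 24067 genes 12.7% were called lower, 11.2% higher and 24.0% in either direction. The groups did not overlap for 8 of the 9 receptors, 6 of them lower and 2 higher with maresin 1, and for 69.6% of all genes, 36.8% lower and 32.8% higher. The median difference was -0.66 over the 9 receptors and -0.02 over all genes. Because the receptors were chosen with these differences known, nothing is read from the counts.

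**Figure D2:**
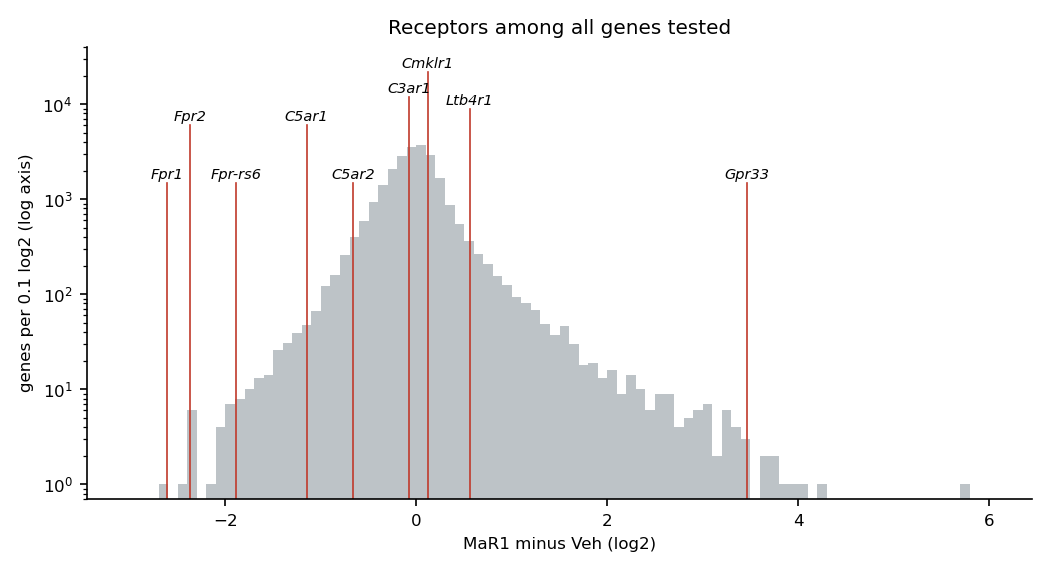
Differences of all 24067 genes (grey bars, genes per 0.1 log2 on a log axis), with the 9 tested receptors marked. Fpr1 stands at the lower end (-2.61) and Gpr33 near the upper end (3.46), while C3ar1 and Cmklr1 lie near 0.

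The genes whose values over the 4 arrays lay nearest to those of Fpr1, Fpr2 and Gpr33, by distance after each gene's own mean was removed, were picked out of 13499 named genes. Fpr1 and Fpr2 were among each other's 3 nearest, at a distance of 0.24. Adgb, an androglobin gene, lay 0.03 from Fpr2 and 0.25 from Fpr1. Klra2, an NK-type lectin receptor gene, lay 0.12 from Fpr2 and 0.26 from Fpr1. The nearest to Gpr33 were Il31ra (0.21), Plppr5 (0.22) and Pdcd1lg2, the gene of the T cell ligand PD-L2 (0.28). Il31ra and Plppr5 were not well above background on either Veh array and were at least 5.08-fold and at least 2.35-fold higher with maresin 1. With 4 arrays in 2 groups, this measure says little more than that the differences were of similar size.

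Genes next to the receptors on the chromosome, looked at after the receptors' values were known, were mixed. Beside them stand the shares over all genes, 11.2% called higher and 12.7% lower, and nothing is read from the neighbours' calls. Has1, a hyaluronan synthase gene on the far side of Fpr1, did not pass (0.09 ± 0.07, adjusted p = 0.401). On chromosome 12, Heatr5a rose by 0.64 ± 0.06 (adjusted p = 0.00775), while the genes nearest to Gpr33 did not pass, namely Dtd2 (-0.08 ± 0.06, adjusted p = 0.341) and Nubpl (-0.21 ± 0.05, adjusted p = 0.0571). Arhgap5, as far out as Heatr5a on the other side, did not pass either (0.16 ± 0.14, adjusted p = 0.426). Beside the C5a receptor pair, Dhx34 (-0.17 ± 0.06, adjusted p = 0.121) and Ccdc9 (0.07 ± 0.06, adjusted p = 0.423) did not pass and Inafm1 fell (-0.42 ± 0.06, adjusted p = 0.0189). Next to C3ar1, Foxj2 fell by 0.39 on the log2 scale (adjusted p = 0.016) and Necap1 did not pass (-0.01 ± 0.06, adjusted p = 0.903), while Slc2a3 (-0.95 ± 0.09, adjusted p = 0.0079) and Clec4a1 (-1.11 ± 0.08, adjusted p = 0.00431), a gene farther out on either side, fell. Beside Ltb4r1, Adcy4 (0.38 ± 0.06, adjusted p = 0.0207) and Ripk3 (0.40 ± 0.05, adjusted p = 0.0149) rose and Cideb (-0.27 ± 0.09, adjusted p = 0.108) did not pass. None of the 4 tested neighbours of Cmklr1 passed. Neither did Meis3, beyond Dhx34 (-0.15 ± 0.08, adjusted p = 0.225), nor Nop9, beyond Cideb (-0.02 ± 0.24, adjusted p = 0.956).

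**Figure D3:**
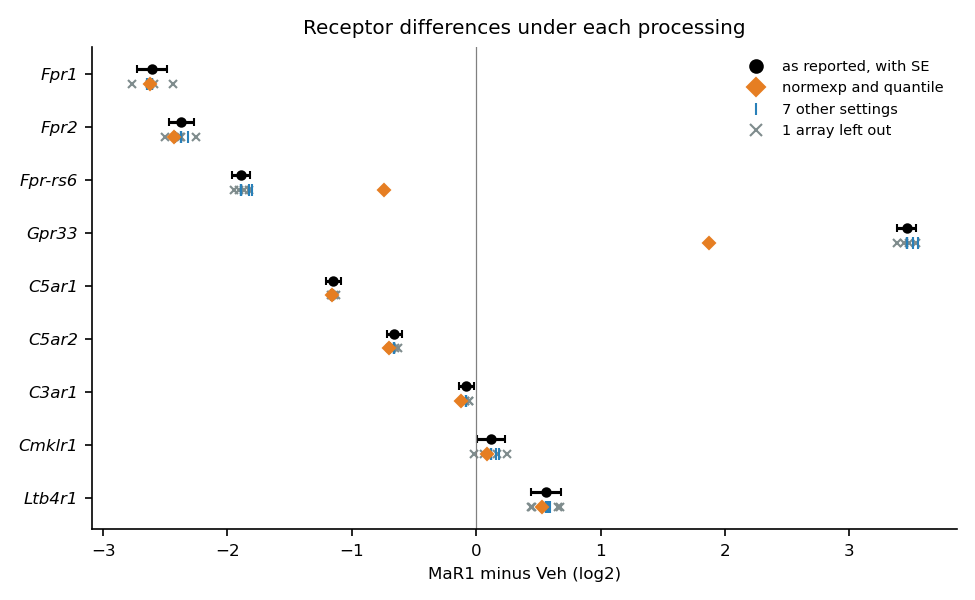
Difference of each tested receptor, MaR1 minus Veh on the log2 scale, as reported (black, with SE) and under the alternatives. The normexp values (orange) lie nearer 0 for the dim probes of Fpr-rs6 (-0.74) and Gpr33 (1.87) and close to the reported values for the other receptors.

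Other receptors of chemoattractants and lipid mediators were mixed. Of 20 listed, 9 were tested, of which 1 rose, 4 fell and 4 did not pass, with a median difference of -0.32. Of all genes, 11.2% were called higher and 12.7% lower. The chemokine receptor genes Cx3cr1 (-1.13 ± 0.11, adjusted p = 0.0073) and Ccr2 (-0.70 ± 0.06, adjusted p = 0.00549) fell, and these 2 calls held without any 1 array, although Cx3cr1 had a value of -0.48 with normexp. Of the receptors for cysteinyl leukotrienes, Cysltr1 fell (-0.65 ± 0.07, adjusted p = 0.0102) and Cysltr2 rose (0.42 ± 0.06, adjusted p = 0.0177). Gpr18, a receptor for resolvin D2, fell by 0.32 on the log2 scale (adjusted p = 0.0436). The call of Cysltr1 was lost without MaR1 replicate 2 (adjusted p = 0.0556), that of Cysltr2 without MaR1 replicate 2 or either Veh array (up to 0.0871) and that of Gpr18 without any 1 of the 4 arrays (up to 0.158), as well as with quantile normalization, normexp (-0.16) and the authors' table. Ccrl2, a chemerin-binding receptor that does not signal, had a difference of -0.10 ± 0.05 (adjusted p = 0.237), and of -0.18 with quantile normalization or in the authors' table and -0.16 with normexp, where it did not pass either. Lgr6, a receptor for maresin 1, and Gpr1 (Cmklr2), another chemerin receptor, were well above background on no array.

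Ligands and the enzymes that make or break them moved in both directions. Of 29 tested genes out of 33 listed, 6 rose, 6 fell and 17 did not pass, with a median of -0.07. Among all genes 11.2% were called higher and 12.7% lower. Among the sources of anaphylatoxins, Hc, which encodes complement C5, rose by 1.23 ± 0.08 (adjusted p = 0.00421) from a dim spot, with levels of -2.90 and -3.08 on the MaR1 arrays against -4.18 and -4.25 on the Veh arrays. Its value was 0.67 with normexp, where that of Cpb2, below, was -0.46. C3 rose by 0.79 ± 0.05 (adjusted p = 0.00417), at 6.60 and 6.59 with maresin 1 against 5.81 and 5.79 with vehicle. Both calls held without any 1 array. C4b (-0.52 ± 0.06, adjusted p = 0.00933) and the regulator gene Cd59a (-0.42 ± 0.06, adjusted p = 0.0146) fell. So did Cpb2, whose carboxypeptidase inactivates anaphylatoxins (-0.70 ± 0.11, adjusted p = 0.0212). The call of C4b was lost without MaR1 replicate 2 or Veh replicate 2 (up to 0.054), that of Cd59a without any 1 array (up to 0.0778) and that of Cpb2 without either MaR1 array or Veh replicate 1 (up to 0.0925).

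Among ligands of the formyl peptide receptors, Anxa1, which encodes annexin A1, rose by 0.50 ± 0.09 (adjusted p = 0.0289) and Saa2 fell (-0.46 ± 0.07, adjusted p = 0.0209), both in dependence on single arrays. Without MaR1 replicate 2 or either Veh array the call of Anxa1 was lost (adjusted p up to 0.112), and that of Saa2 was lost without any 1 of the 4 (up to 0.0883). Saa3, the serum amyloid A gene of macrophages, had a difference of -0.17 ± 0.06 (adjusted p = 0.121) and passed with normexp, the authors' table or a variance trend. Rarres2, which encodes chemerin, had one of -0.25 ± 0.09 (adjusted p = 0.127), which was -0.14 without MaR1 replicate 2.

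On the leukotriene side, Alox5ap, whose product presents arachidonic acid to 5-lipoxygenase, fell. It stood at 1.92 and 1.74 on the MaR1 arrays, against 3.15 and 3.13 on the Veh arrays, a difference of -1.31 ± 0.08 (adjusted p = 0.00341). Alox5 itself was dim and did not pass (-0.01 ± 0.09, adjusted p = 0.952), and neither did Lta4h, the leukotriene B4-forming hydrolase gene (-0.20 ± 0.08, adjusted p = 0.164). The Lta4h value lacks Veh replicate 1, where its spot carried an outlier mark, and it was -0.07 in the authors' table and passed with a variance trend (adjusted p = 0.0253). Alox12 rose by 0.76 ± 0.06 (adjusted p = 0.00565) and Ltc4s, which makes the cysteinyl leukotrienes, rose by 0.47 ± 0.07 (adjusted p = 0.0191). The calls of Alox5ap and Alox12 held without any 1 array, and that of Ltc4s was lost without MaR1 replicate 2 or either Veh array (up to 0.0855).

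Downstream, 47 genes of receptor signalling were all tested, of which 10 rose, 14 fell and 23 did not pass, with a median of -0.12, where 11.2% of all genes were called higher and 12.7% lower. The groups by role below were drawn up after the values were seen. Both arrestin genes fell, Arrb1 by 0.83 (adjusted p = 0.00386) and Arrb2 by 0.62 on the log2 scale (adjusted p = 0.00648), and both calls held without any 1 array. Of the 4 receptor kinase genes 3 fell, among them Grk6 (-0.66 ± 0.08, adjusted p = 0.0108) and Grk2 (-0.37 ± 0.06, adjusted p = 0.0207). None of these 3 calls held without every array in turn, and with the replicate number as a block 1 kinase gene was called lower. Rgs2, a regulator that shortens G protein signals, fell by 0.97 on the log2 scale (adjusted p = 0.00301), whereas Rgs16 rose by 0.56 ± 0.06 (adjusted p = 0.00987, but 0.056 without Veh replicate 1). The call of Grk6 too was lost without Veh replicate 1 (0.055).

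Subunits of the phagocyte NADPH oxidase, the enzyme behind the oxidative burst, fell in 4 of 7 cases and rose in none. For this and the next groups, 12.7% of all genes were called lower and 11.2% higher. Cybb, the catalytic subunit gene, fell by 0.67 on the log2 scale (adjusted p = 0.00877), and its call alone of the 4 held without any 1 array (up to 0.0496). With the replicate block, 2 of the 7 genes were called lower. Of the genes for G protein alpha subunits 3 of 8 rose and none fell, and 1 of these calls, that of Gnai1, held without any 1 array. Gnai1 rose by 1.07 ± 0.07 (adjusted p = 0.00349), while Gnai2, a main Gi subunit of leukocytes, had a difference of -0.19 ± 0.06 (adjusted p = 0.0972) and passed with quantile normalization, normexp, the authors' table or a variance trend, with a value of -0.12 as the mean of its probes. Of beta and gamma subunit genes 4 of 8 rose and 1 fell, among them Gnb4 (0.73 ± 0.09, adjusted p = 0.0112), whose call was lost without Veh replicate 1 (0.0554). None of these 5 calls held without every array in turn, and with the block 2 genes of this group were called higher and 1 lower.

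Plcb1, a phospholipase C beta gene, was not well above background on either Veh array and was at least 7.10-fold higher with maresin 1 (adjusted p = 0.02, up to 0.0908 without either MaR1 array). That bound holds for the processed signal of its brightest probe, and the fitted log2 difference was 1.44 with normexp and 2.75 as the mean of its probes, both below it. Plcb4 rose by 0.56 ± 0.13 (adjusted p = 0.0454, up to 0.141 without MaR1 replicate 2 or either Veh array), with a value of 0.32 under normexp. Elmo1, which helps activate Rac, fell by 0.75 on the log2 scale (adjusted p = 0.00828), and this call held without any 1 array. Pik3cg, the catalytic PI3K gamma gene, had a difference of -0.28 ± 0.08 (adjusted p = 0.0773), and of -0.08 with normexp.

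**Figure D4:**
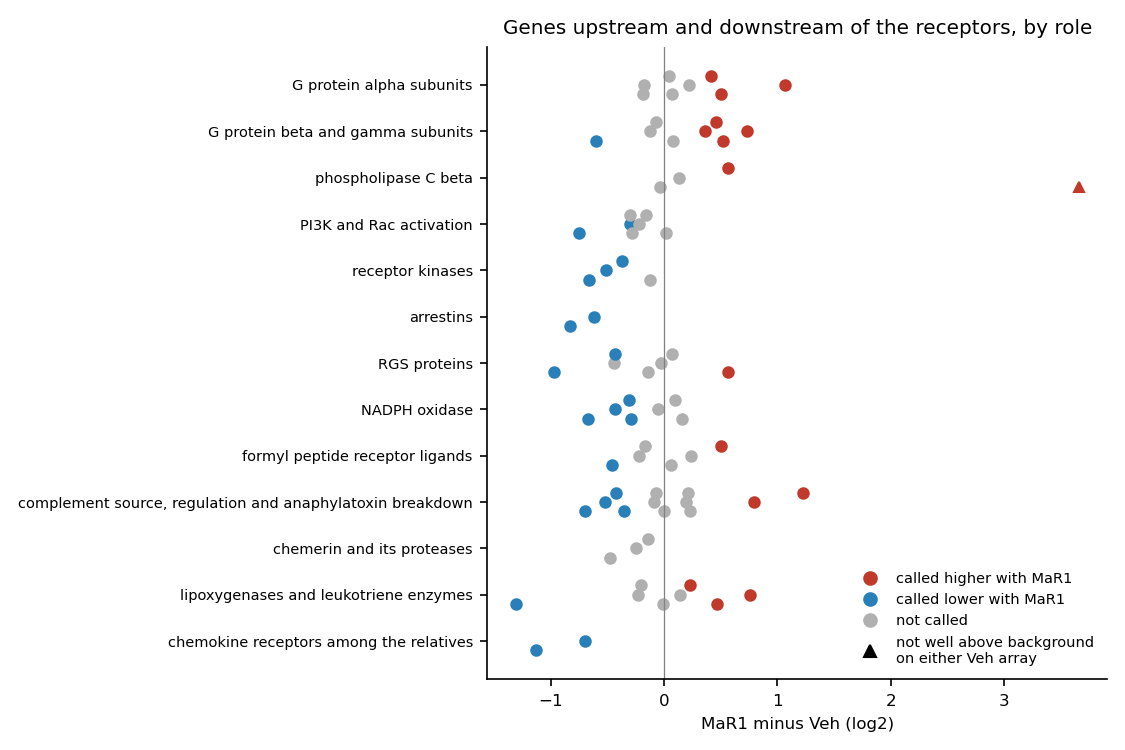
Differences, MaR1 minus Veh on the log2 scale, of tested genes upstream and downstream of the receptors, grouped by role (red called higher, blue called lower, grey not called, triangle a gene not well above background on either Veh array). Both arrestins and 3 of 4 receptor kinases are blue, and the alpha subunits include red and grey points only.

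The cultures held the defining genes of Kupffer cells. Clec4f, Vsig4, Timd4, Cd5l and Marco were well above background on all 4 arrays, and none of these 5 passed the test, the most abundant being Marco (-0.19 ± 0.06, adjusted p = 0.0905). Of the whole list of 9, Csf1r rose by 0.29 ± 0.07 (adjusted p = 0.0471) and Adgre1, which encodes F4/80, fell (-0.67 ± 0.06, adjusted p = 0.00634), of which the call of Adgre1 held without any 1 array. The list summed to 851 and 843 on the MaR1 arrays against 934 and 895 on the Veh arrays, in multiples of the array's 75th percentile. Neutrophils and monocytes are known for high Fpr1, Fpr2 and C5ar1. Of 9 tested neutrophil markers 1 fell and none rose, where 12.7% of all genes were called lower and 11.2% higher. The neutrophil list summed on that scale to 45.0 and 41.1 on the MaR1 arrays against 46.1 and 47.8 on the Veh arrays. The most abundant marker, Csf3r (-0.13 ± 0.07, adjusted p = 0.265), made up most of that sum on every array. These sums therefore say little about the other neutrophil markers. The marker that fell was Mmp8 (-1.53 ± 0.08, adjusted p = 0.00298), and Cxcr2 was well above background on no array. Of 8 monocyte markers 3 rose and 2 fell, with sums of 257 and 245 on the MaR1 arrays against 227 and 218 on the Veh arrays, and the most abundant, Ly6c2, did not pass (-0.04 ± 0.07, adjusted p = 0.69).

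Dendritic cells are known to express Gpr33. Of 8 tested dendritic cell markers 6 rose and none fell, and 3 of the rises held without any 1 array. Of all genes, 11.2% were called higher and 12.7% lower. The dendritic cell list summed to 73.9 and 74.5 on the MaR1 arrays, against 50.6 and 47.2 on the Veh arrays. That rise came mostly through Batf3 (1.89 ± 0.06, adjusted p = 0.0015) and Itgax (2.39 ± 0.08, adjusted p = 0.00154). The most abundant gene of the list, Siglech, did not pass (-0.28 ± 0.09, adjusted p = 0.0964), and Xcr1 was well above background on no array. The part of these cells in the Gpr33 signal was not tested.

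Markers of further cell types moved as well, where 11.2% of all genes were called higher and 12.7% lower. NK and T cell markers (2 of 8 rose, 4 fell) summed to 53.0 and 59.7 on the MaR1 arrays against 29.0 and 27.8 on the Veh arrays, mostly through Gzma (1.37 ± 0.09, adjusted p = 0.00405). B cell markers (3 of 5 rose) summed to 3.63 and 3.43 with maresin 1 against 1.93 and 2.17 with vehicle, the most abundant being Cd79b (0.74 ± 0.08, adjusted p = 0.00887). Sinusoidal endothelial markers (3 of 6 rose) summed to 72.4 and 72.3 with maresin 1 against 58.5 and 61.4 with vehicle, the most abundant being Stab2 (0.47 ± 0.07, adjusted p = 0.0185). These sums leave out Kdr (-0.32 ± 0.08, adjusted p = 0.0676), which had no value on Veh replicate 1. Hepatocyte markers (1 of 6 fell) summed to 17.7 and 18.9 with maresin 1 against 22.0 and 20.4 with vehicle, the most abundant being Alb (-0.23 ± 0.09, adjusted p = 0.125). Stellate cell markers (2 of 4 fell, Lrat and Des at background) summed to 2.95 and 3.01 with maresin 1 against 3.82 and 3.90 with vehicle. The most abundant of them was Dcn (-0.37 ± 0.06, adjusted p = 0.0178). Of 4 tested mast cell and basophil markers none passed, and Fcer1a and Ms4a2 were at background on all arrays. That list summed to 0.545 and 0.412 with maresin 1 against 0.375 and 0.362 with vehicle, the most abundant being Gata2 (0.15 ± 0.06, adjusted p = 0.163). The part of any of these cells in the receptor values was not tested.

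**Figure D5:**
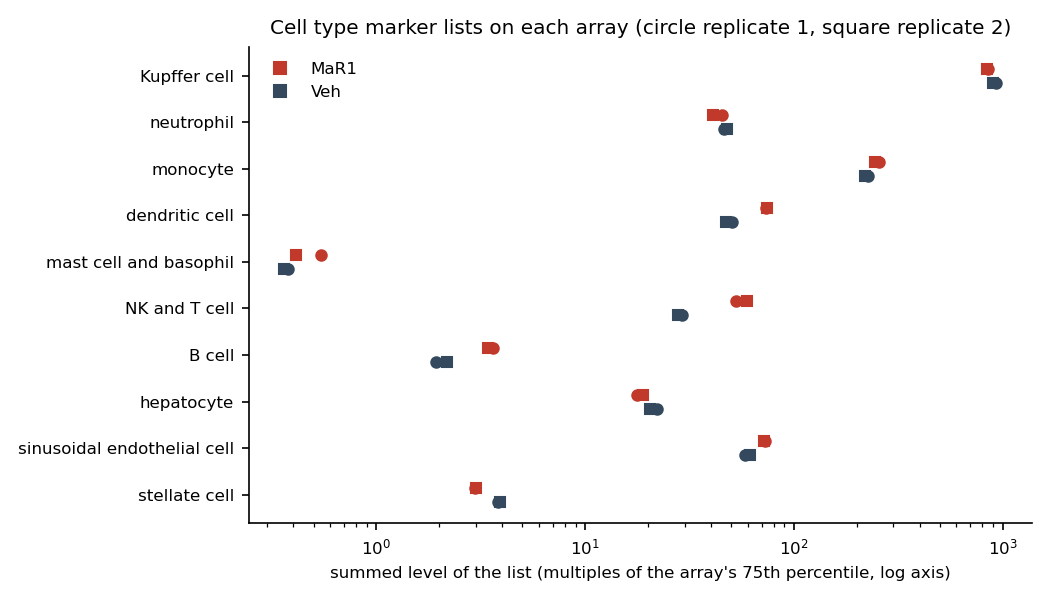
Summed level of each cell type marker list on each array (multiples of the array's 75th percentile, log axis; MaR1 red, Veh dark; circles replicate 1, squares replicate 2). The neutrophil sums of the MaR1 arrays (45.0 and 41.1) are mostly Csf3r and lie just below those of the Veh arrays. The dendritic cell sums of the MaR1 arrays (73.9 and 74.5) lie above those of the Veh arrays.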

How the data were processed

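RNA of Kupffer cells in 2 groups of 2 was measured on single-colour Agilent arrays. The authors made the deposited intensity values with Agilent Feature Extraction 11.0.1.1, per the file headers. That software subtracted background and removed spatial trends inside each array, and nothing was scaled between arrays. No spot was saturated, 94 to 123 non-control spots per array carried an outlier mark, and the 75th percentile of the signal was 945.8 and 846.5 (MaR1) and 961.1 and 987.6 (Veh). A second deposited table, from the authors, gives log2 values whose scale and filter are not stated in the sources used here, and it served as an alternative only.

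Each processed signal was divided by its array's 75th percentile (taken over spots other than controls) and put on the log2 scale, leaving out control and outlier-marked spots. The 31128 probes that were well above background on both MaR1 arrays or on both Veh arrays entered the fit. Names came from the RefSeq accession in the files through RefSeq's GRCm38.p6 genes (58.3% of probes matched). Probes without a match were kept under the array's own identifier and counted as genes, so 14496 of the 24067 had a RefSeq symbol. Each gene is represented by its brightest kept probe. For a gene not well above background on either array of a group, the fold is a lower bound, taken per array against its own signal or the dimmest signal counted as above background, whichever was greater. limma 3.58.1 (R 4.3.3) gave two-sided adjusted p-values (Benjamini-Hochberg over all 24067 genes, threshold 0.05). For 17 genes an array had no value and the fit used the others. Figures used matplotlib 3.10.9 in Python 3.11.15. The number of arrays limits the precision.

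The receptors, gene lists and marker lists were chosen with earlier results of these data known. Named were all receptors, up to 5 called genes in each direction per list with the largest differences and no overlap of groups, a set of further genes such as Anxa1 and Rarres2, the 3 genes most like Fpr1, Fpr2 and Gpr33, and the most abundant marker of each cell type. Mmp8, Adcy4 and the other neighbouring genes, and the Kupffer markers, were named after their values were seen and were not refitted gene by gene under the alternatives. The grouping by role was also made after values were seen. Alternatives were quantile normalization, normexp on the median spot signal (offset 50), the authors' table, other filters, the mean of a gene's probes, a variance trend, a replicate block and leaving out each array.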

Additional observations from a re-analysis of the deposited data

How the results depend on the processing

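Among the receptors, the call of Ltb4r1 was lost with no filter and without any 1 array, leaving 1 receptor counted as higher. With no filter on dim probes, which adds genes to the adjustment, 1087 genes were higher and 972 lower, against 2700 and 3068, and the called counts were 0 higher for other receptors, 3 higher and 3 lower for ligands, and 5 and 7 for signalling. A variance trend gave 4524 higher and 4672 lower genes and 10 lower ligand genes, and normexp with quantile normalization 11 lower ligand genes. Leaving out 1 array gave 1011 to 1336 higher and 918 to 1491 lower genes, 0 to 1 other receptors higher, 3 to 5 ligand genes higher and 1 to 3 lower, and 2 to 5 signalling genes higher and 5 to 9 lower, from fewer samples. The fit with the replicate block gave 1769 higher and 1929 lower genes and 9 lower signalling genes. Among the named genes with values given under the alternatives, the block ended the calls of Grk2, Saa2, Plcb4 and Gpr18. The replicate differences of the groups had r = -0.03 over genes, and this 1 value cannot tell whether the replicates were paired. No filter also ended those of Anxa1, Plcb1, Gnb4, Cpb2, Ltc4s, Grk2, Grk6, Plcb4, Saa2, Gpr18 and Cysltr2. Among values that did not pass, Alox5 changed sign with quantile normalization (0.05), normexp (0.06), the authors' table (0.09), without MaR1 replicate 2 and without Veh replicate 1 (0.03 and 0.09, against down to -0.11 without another array), and Cmklr1 without Veh replicate 2 (-0.02, against up to 0.25 without another array). The cause of these changes was not tested. Signal over background limits Fpr-rs6, Gpr33, Cmklr1 and Ltb4r2.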
